A study of Rattus norvegicus with 125 samples.

Results

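The mitochondrial ribosomal proteins were followed as 1 group of genes across 5 organs of adult male Sprague-Dawley rats that had breathed phosphine or air. The group was every gene whose symbol in the array's platform annotation begins with Mrpl or Mrps followed by a digit, read from probe sets that carry a single symbol. This gave 73 members of 13439 genes measured, 48 of the large and 25 of the small ribosomal subunit, with Mrps30 and Mrps18a counted in the large subunit where their proteins sit. Membership follows from the symbol alone and not from an expression value. Mrpl11 and Mrps36 are not among the 73.

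Mitochondria carry their own ribosome, which makes the few respiratory chain proteins that mitochondrial DNA still encodes. Its RNA comes from mitochondrial DNA, but every one of its proteins is encoded in the nucleus, made in the cytosol and imported. The core of the particle descends from the bacterial ribosome, while other proteins were added later and are particular to mitochondria. Phosphine (PH3) is a fumigant gas whose toxicity has long been tied to the respiratory chain, cytochrome c oxidase above all, and heart, kidney and liver cells are rich in mitochondria.

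Rats in the PH3 groups were exposed in a whole-body chamber to 387 ppm of the gas over 40 min, and rats in the Air groups to air without it (0 ppm). Concentration times duration came to 15480 in ppm × min. Brain and kidney were collected 1, 3, 6 and 24 h afterwards from 4 PH3 and 4 Air rats at each time, and heart from 4 and 4 at 1, 3 and 6 h and from 3 PH3 and 2 Air rats at 24 h. Liver was collected from 4 PH3 and 4 Air rats at 6 h, with 3 more PH3 livers at 3 h that had no Air counterpart. Lung came from 4 PH3 and 2 Air rats at 3 h, 4 and 4 at 24 h, and 3 and 4 at 1 week. In all there were 125 arrays from 48 rats, 60 of the arrays from Air rats, and several organs of a time point often came from the same rat. All groups shared the strain, sex and whole-organ sampling, and nothing in the labels separates parts of an organ. RNA of a whole organ cannot tell fewer cells of a type from less RNA per cell.

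The arrays report log2 levels, so a difference of 1 is a 2-fold difference. Within groups the arrays correlated at 0.951 to 0.994 over all probe sets. Of the organ markers checked in Air rats, every one of 6 brain, 5 heart, 8 liver and 5 lung genes was highest in its own organ, and so were 4 of 5 kidney genes, the exception being Slc34a1. The cardiac myosin genes Myh6 and Myl7 also reached 10.10 and 10.30 in lung, against 13.65 and 13.03 in heart. All 73 members lay above the lower quartile of the arrays in all 5 organs. RefSeq lists like-named pseudogenes or copies for 22 members, Mrpl41 and Mrpl47 among them, and whether a probe set also reads a copy was not tested.

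The stretches before the transcription starts of 9 members are shown. Either the results below name the gene, or its stretch holds the letters of a factor linked to mitochondrial genes. No expression result below rests on these sequences. RefSeq promoters of the rat build GRCr8 could be matched for 59 of the 73 members. Each sequence runs 5′ to 3′ on the gene's strand up to the base before the start, over 250 bases or, where a neighbouring gene starts closer in the other direction, over the bases between both starts. Capitals mark the palindrome bound by NRF1 (the half-site GCGCA with its own reverse complement directly after it), CCGGAAG, an ETS core that GABP (NRF2) can bind, AAGATGGC of YY1, and GGGCGG of SP1, each read on both strands.
Mrpl12 (chr10:106256496-106256745, plus strand): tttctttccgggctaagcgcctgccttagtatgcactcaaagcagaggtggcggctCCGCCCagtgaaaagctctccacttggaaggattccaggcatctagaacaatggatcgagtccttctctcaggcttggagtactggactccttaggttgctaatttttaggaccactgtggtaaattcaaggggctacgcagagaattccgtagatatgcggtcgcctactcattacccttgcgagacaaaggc
Mrpl41 (chr3:28179756-28180005, minus strand): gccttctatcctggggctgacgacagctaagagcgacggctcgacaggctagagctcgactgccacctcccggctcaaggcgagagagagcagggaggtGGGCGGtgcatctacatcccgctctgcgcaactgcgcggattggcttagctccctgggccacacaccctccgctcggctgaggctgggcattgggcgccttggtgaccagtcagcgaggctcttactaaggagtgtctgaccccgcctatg
Mrpl49 (chr1:212779328-212779512, minus strand): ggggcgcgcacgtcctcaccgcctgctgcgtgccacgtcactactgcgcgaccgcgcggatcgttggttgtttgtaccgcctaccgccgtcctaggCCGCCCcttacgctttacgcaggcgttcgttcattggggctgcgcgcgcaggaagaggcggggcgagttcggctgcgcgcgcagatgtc
These first 3 belong to the members whose mRNA passed the test after phosphine, and each holds 1 SP1 match and none of the other letters.
Mrpl17 (chr1:169575700-169575949, minus strand): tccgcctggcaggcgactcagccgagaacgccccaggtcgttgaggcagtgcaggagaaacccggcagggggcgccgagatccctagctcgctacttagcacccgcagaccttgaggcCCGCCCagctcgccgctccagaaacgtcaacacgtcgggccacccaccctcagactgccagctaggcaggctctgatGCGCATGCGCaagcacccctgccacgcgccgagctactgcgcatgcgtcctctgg
Mrpl32 (chr17:55260442-55260650, plus strand): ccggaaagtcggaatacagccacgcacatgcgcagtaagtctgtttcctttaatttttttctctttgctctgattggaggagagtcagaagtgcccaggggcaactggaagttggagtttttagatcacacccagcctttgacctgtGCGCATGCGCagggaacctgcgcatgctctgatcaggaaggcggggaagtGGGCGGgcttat
Mrpl44 (chr9:88554800-88555049, plus strand): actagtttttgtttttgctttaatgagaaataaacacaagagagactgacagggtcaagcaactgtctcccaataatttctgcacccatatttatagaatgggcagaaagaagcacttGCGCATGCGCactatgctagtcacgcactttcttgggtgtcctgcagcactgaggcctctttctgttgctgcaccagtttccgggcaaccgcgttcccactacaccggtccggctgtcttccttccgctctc
Mrps18b (chr20:2842756-2843005, plus strand): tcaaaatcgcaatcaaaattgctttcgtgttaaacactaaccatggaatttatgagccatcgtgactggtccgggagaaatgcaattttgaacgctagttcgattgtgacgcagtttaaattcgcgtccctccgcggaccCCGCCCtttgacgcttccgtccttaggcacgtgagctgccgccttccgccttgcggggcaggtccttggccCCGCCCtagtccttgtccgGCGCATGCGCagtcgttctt
These 4 were the members with the full NRF1 palindrome, which lay between 132 and 11 bases before the start.
Mrpl46 (chr1:142117031-142117263, minus strand): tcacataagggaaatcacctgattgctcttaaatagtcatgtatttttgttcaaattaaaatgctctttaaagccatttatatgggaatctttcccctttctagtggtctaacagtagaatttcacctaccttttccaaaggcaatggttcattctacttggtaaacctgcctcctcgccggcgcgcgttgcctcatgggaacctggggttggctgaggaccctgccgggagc
Mrpl47 (chr2:117447362-117447604, minus strand): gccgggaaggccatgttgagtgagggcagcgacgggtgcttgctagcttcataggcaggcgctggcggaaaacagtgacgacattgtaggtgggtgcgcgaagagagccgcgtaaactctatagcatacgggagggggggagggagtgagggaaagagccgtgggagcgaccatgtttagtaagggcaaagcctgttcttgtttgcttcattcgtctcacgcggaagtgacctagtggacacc
Mrpl46 is shown because the same stretch, read on the other strand, leads to Mrps11, so 1 stretch lies before a large and a small subunit gene. Mrpl47 had the largest heart difference of all members.

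Over the 250 bases before the start, 4 of 59 members (6.78%) held the NRF1 palindrome, against 202 of 19005 protein-coding genes (1.06%). The ETS core stood before 13 of 59 (22%) against 9.81% of all, and either of both before 17 of 59 (28.8%) against 10.7%. YY1 letters were found in 3 members (5.08% against 1.81%). SP1 letters (45.8% against 41.4%) and the TATA box letters TATAAA (13.6% against 13.2%) were about as frequent as in all genes, and so was GC content, with medians of 54.4% and 54.8%. These counts describe letters in this window and were not tested as binding sites. Of the 59 members, 17 (28.8%) had the start of a divergently transcribed protein-coding gene within 1000 bases, against 7.22% of 19005 genes, with start sites 44 to 996 bases apart.

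In Air rats most members were highest in heart. Heart had the highest organ mean for 58 of 73 members, kidney for 8, liver for 6, lung for 1 (Mrpl14) and brain for none. Lung was lowest for 43, brain for 27 and liver for 3. Expressed per array as the median over members of the distance from the mean of the 5 organs, the 14 hearts ran from 0.69 to 0.84 and the 16 kidneys from 0.10 to 0.28. The 4 livers ran from 0.06 to 0.13, the 16 brains from −0.51 to −0.22 and the 10 lungs from −0.82 to −0.32. No heart overlapped another organ, whereas kidney and liver overlapped, and so did brain and lung.

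**Figure D1:**
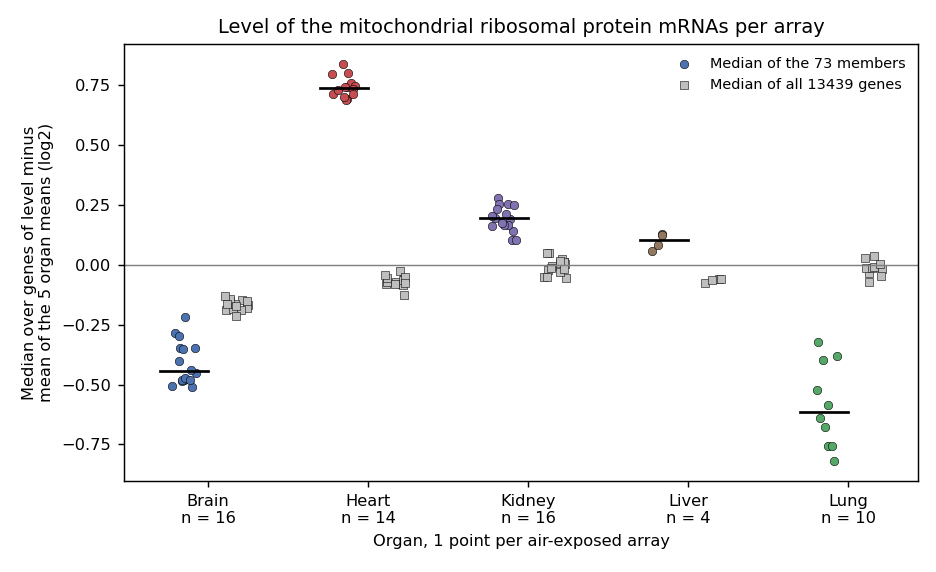
Median over the 73 members (circles) and over all 13439 genes (squares) of the log2 level minus the mean of the 5 organ means, 1 point per Air array, with a bar at the median of each organ's arrays. The 14 hearts sit between 0.69 and 0.84, above every array of the other organs, and the 10 lungs spread from −0.82 to −0.32.

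Each organ was tested against the mean of the other 4 with limma, with p adjusted over all 13439 genes by Benjamini-Hochberg and a threshold of 0.05. In heart 71 of 73 members were higher and 0 lower, where 35.7% of all genes were higher and 44.7% lower. Of these, 31 were at least 2-fold higher (11.4% of all genes). The median difference was 0.94 for the members and −0.07 for all genes. For 37 members every heart array lay above every array of the other organs, which held for 6.21% of all genes. The 2 members not called in heart were Mrpl10, whose protein lies in the stalk that recruits translation factors (0.07 ± 0.07, SE, adjusted p = 0.35), and Mrps33 (−0.01 ± 0.05, adjusted p = 0.87).

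The largest heart difference belonged to Mrpl47, counterpart of a bacterial protein near the exit of the peptide tunnel. Its level in heart ran from 9.62 through a median of 9.90 to 10.09 over 14 arrays, in kidney from 7.60 through 8.73 to 9.17 and in lung from 6.40 through 7.29 to 7.85. Hearts lay apart from all other arrays, 1.88 ± 0.10 above the mean of the other organs (adjusted p = 3.7e-25). Mrpl45, which helps anchor the ribosome to the inner membrane, was 1.75 ± 0.04 higher in heart (adjusted p = 7.3e-44), with hearts from 10.15 to 10.54 and no other array above 9.26. Next came Mrps15 (1.71 ± 0.06), Mrpl42 (1.71 ± 0.08) and Mrpl40 (1.70 ± 0.05). Mrpl12, a stalk protein that also binds the mitochondrial RNA polymerase, was 1.67 ± 0.05 higher, at 11.59 to 11.85 in heart and 9.98 to 10.16 in liver.

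**Figure D2:**
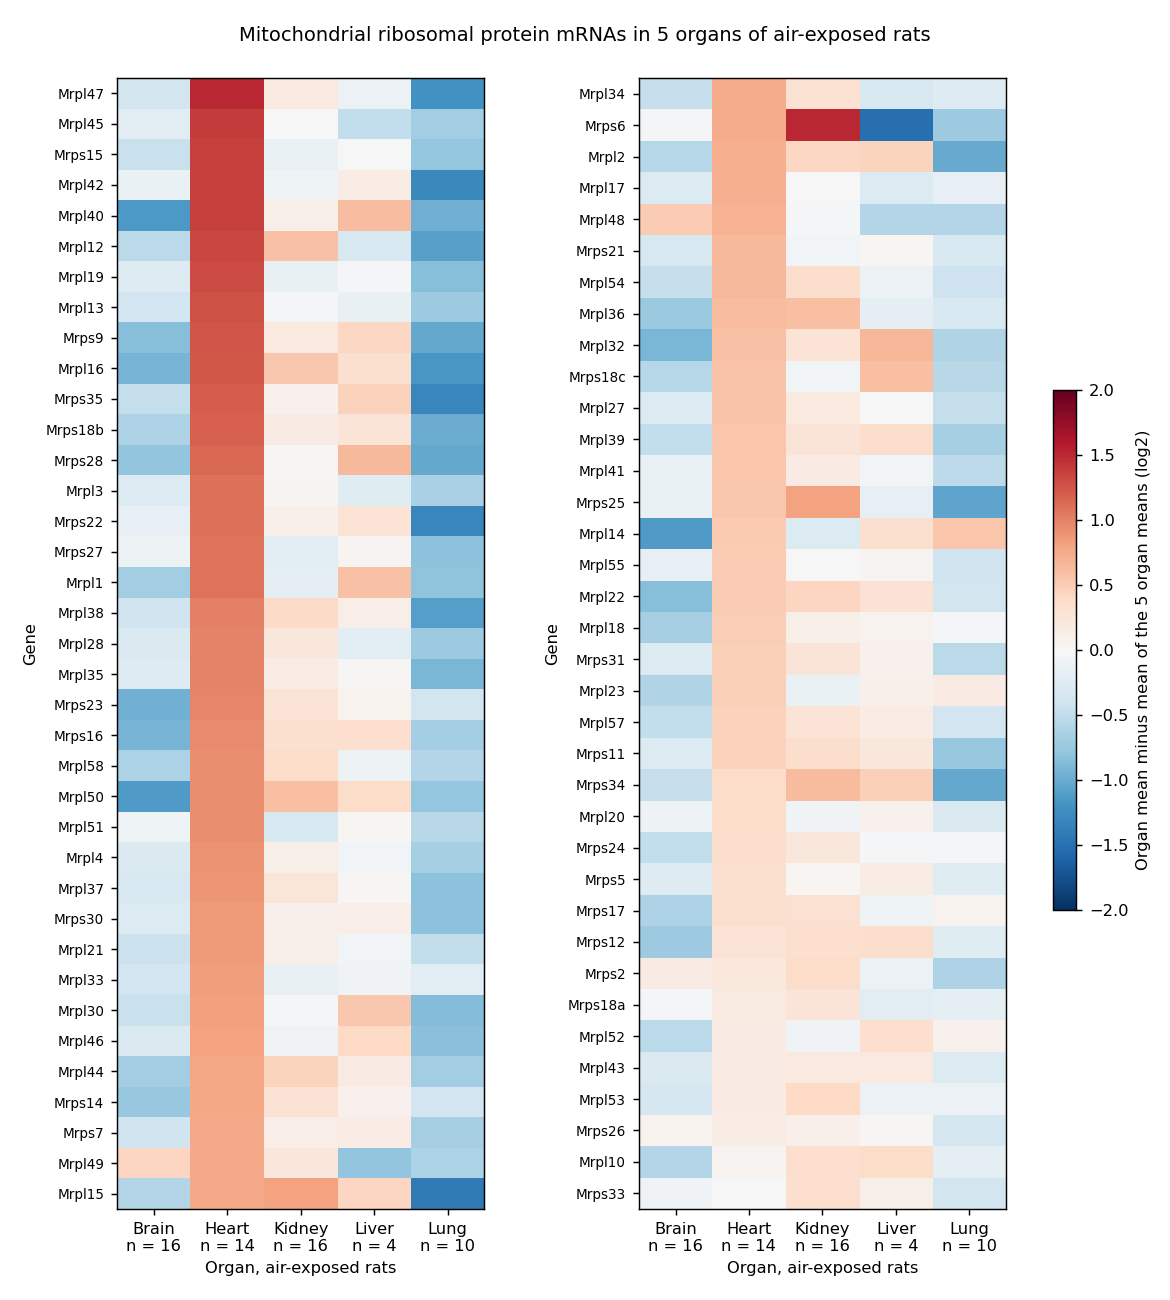
Mean log2 level of each of the 73 members in each organ of Air rats minus the mean of its 5 organ means, with genes ordered by their heart difference and the number of arrays under each organ. The heart column is above 0 for nearly all members, and Mrps6, Mrpl14, Mrpl48 and Mrpl49 depart from the common order.

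Lung was the opposite pole. There 67 members were lower and 2 higher, against 40.3% and 38.8% of all genes, and 22 were at least 2-fold lower (12.6%). The median difference was −0.78, against −0.04 over all genes. Mrpl15 was lowest (−1.76 ± 0.05), with lungs from 8.70 to 9.33 and the lowest value elsewhere at 9.52 in brain. Mrps22, in which human variants cause a neonatal disorder of the respiratory chain, followed (−1.63 ± 0.12), with Mrps35 (−1.63 ± 0.07), Mrpl42 (−1.61 ± 0.09) and Mrpl47 (−1.52 ± 0.12) next. The exceptions were Mrpl14 (0.70 ± 0.07) and Mrpl23 (0.21 ± 0.07). The part of cardiac muscle RNA in the lung values was not tested.

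Brain was also low. There 66 members were lower and 4 higher, against 55% and 32.1% of all genes, with 9 at least 2-fold lower (21.6%). The median difference was −0.49, but all genes had −0.20 in this contrast, so the distance beyond that common shift was smaller. Lowest were Mrpl40 (−1.43 ± 0.05), Mrpl14 (−1.42 ± 0.06), Mrpl50 (−1.42 ± 0.07), Mrps23 (−1.21 ± 0.05) and Mrps16 (−1.16 ± 0.06). The 4 higher in brain were Mrpl48 (0.63 ± 0.05), Mrpl49 (0.54 ± 0.05), Mrps2 (0.21 ± 0.08) and Mrps26 (0.10 ± 0.04). A further probe set of Mrpl48 was instead lowest in brain (5.35). A further probe set of Mrpl49 read 7.54 in brain, below heart (7.96) but above the other organs. For Mrpl40, a further probe set had its lowest mean in liver, with brain next. Set directly against lung, brain was higher for 42 members (32.2% of all genes) and lower for 19 (44.6%), with 12 not called.

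Kidney and liver lay between these poles. In kidney 46 members were higher and 8 lower, where 35.7% and 37.6% of all genes were, with a median of 0.24 and 3 members at least 2-fold higher (11.5%). With each array centred on its median these counts became 32 higher and 23 lower. These 3 were Mrps6 (1.89 ± 0.07), Mrpl15 (1.01 ± 0.04) and Mrps25 (1.00 ± 0.04), and Mrps34 (0.79 ± 0.06) and Mrpl36 (0.76 ± 0.11) came next. Lowest in kidney were Mrpl51 (−0.40 ± 0.04), Mrpl14 (−0.33 ± 0.06), Mrps27 (−0.27 ± 0.06), Mrpl1 (−0.24 ± 0.06) and Mrpl19 (−0.19 ± 0.05). In liver 25 members were higher and 13 lower, against 31.3% and 40.1% of all genes, with a median of 0.11. Centring made these 45 and 7, while heart had 73 higher and lung 71 lower. Highest were Mrpl32 (0.84 ± 0.08), Mrps28 (0.80 ± 0.09), Mrpl40 (0.78 ± 0.08), Mrps18c (0.76 ± 0.13) and Mrpl1 (0.74 ± 0.11). Lowest were Mrps6 (−1.88 ± 0.12, the only member at least 2-fold lower, 19.0% of all genes), Mrpl49 (−0.99 ± 0.09), Mrpl48 (−0.72 ± 0.09), Mrpl45 (−0.62 ± 0.07) and Mrpl34 (−0.41 ± 0.10). The further probe set of Mrpl48 read 6.04 in liver, above brain (5.35), heart (5.72) and lung (5.65). That of Mrpl49 was low in liver too (6.78), with only lung below it (6.34). For Mrpl40 the further probe set did not share the high liver level. Its lowest organ mean was that of liver (6.48) and its highest that of heart (9.21).

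Tested pair by pair, heart exceeded kidney in 56 members (36.9% of all genes) and fell below it in 6 (38.2%). Heart exceeded liver in 62 (33.4%) and fell below it in 1 (31.8%). Kidney and liver were the closest pair, with 25 members higher in kidney (33.7%), 13 higher in liver (27.2%) and 35 not called either way. The commonest order of organ means, heart, liver, kidney, brain, lung, held for 17 members, and the same order with kidney before liver for 16.

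Members differed in how far organs separated them. The distance from the highest to the lowest organ mean had a median of 1.55, against 1.64 over all genes, and reached at least 2 for 18 members. It was widest for Mrps6 (3.01), Mrpl47 (2.72) and Mrpl42 (2.65) and narrowest for Mrps18a (0.48), Mrpl43 (0.48) and Mrps26 (0.51). Mrps6 was the only member with all kidneys above every other array and all livers below. It ran from 10.98 to 11.67 in kidney, 10.25 to 10.76 in heart, 9.48 to 10.06 in brain, 8.54 to 9.57 in lung and 7.97 to 8.47 in liver. Mrps18a had the same order of organ means, over a far narrower range. For Mrps6 every neighbouring pair in that order passed the test.

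The 3 paralogs of bacterial protein S18, of which a ribosome can hold several at different sites, had 3 different profiles by the probe sets used. Mrps18b was highest in heart (10.31 to 10.76) and lowest in lung (7.67 to 8.95), with hearts 1.49 ± 0.06 above the other organs. Mrps18c was high in both heart (0.71 ± 0.08) and liver (0.76 ± 0.13), where the arrays of both organs overlapped. Its further probe set was instead highest in kidney (6.90). Mrps18a, which sits in the large subunit, was nearly level, with 0.23 ± 0.06 in heart and 0.32 ± 0.06 in kidney. Among other members with a known role, Mrpl58, a release factor built into the ribosome, was 1.17 ± 0.03 in heart, and Mrpl44, related to the double-stranded RNA nuclease family, was 0.97 ± 0.06. The core protein Mrpl3 was 1.39 ± 0.04 higher there. Of the small subunit, Mrps7 (0.95 ± 0.05), Mrps5 (0.40 ± 0.05), Mrps12 (0.34 ± 0.07), Mrps34 (0.46 ± 0.06) and Mrps2 (0.26 ± 0.08) were higher in heart by smaller steps, and Mrps30 of the large subunit by 1.07 ± 0.06.

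Large and small subunit had median heart differences of 0.96 and 0.80, and members with and without a bacterial counterpart 0.93 (44 genes) and 0.97 (29 genes). Lung medians were −0.77 and −0.82 by subunit and −0.76 and −0.83 by origin. Of the other genes of the pathway, the respiratory chain had 73 of 77 genes higher in heart (median 1.10), translation factors 8 of 11 (1.01) and aminoacyl-tRNA synthetases 14 of 16 (0.75). Ribosome assembly factors had 19 of 27 (0.56), transcription and RNA processing factors 11 of 15 (0.71), and the 5 ribosomal proteins under other names 5 of 5 (0.69). The cytosolic ribosome differed, with 14 of 38 higher and 11 lower in heart (0.03) and 34 of 38 higher in lung (0.45). In liver the respiratory chain was lower for 61 of 77 genes (median −0.33) while transcription and RNA processing factors were higher for 12 of 15 (0.73), and the members lay between at 0.11.

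Of the divergent neighbours, 14 of the 17 named were measured, 6 higher and 7 lower in heart (35.7% and 44.7% of all genes). Mrpl46 and Mrps11, each the neighbour of the other, are among those higher. The 7 lower were Mitd1, Hira, Pnpla7, Ncapd2, Ppp1r10, Helq and Gga3, all beside members that were higher in heart. Mrpl46 and Mrps11, which share the stretch printed above over 234 bases, were both higher in heart (1.00 ± 0.05 and 0.57 ± 0.05) and lower in lung (−1.05 ± 0.05 and −0.96 ± 0.05), but parted in kidney (−0.09 ± 0.05 and 0.44 ± 0.05). Mrpl47 starts 244 bases from Ndufb5, a subunit of respiratory complex I, which was 1.38 ± 0.05 higher in heart and −1.13 ± 0.05 in lung. Mrps27 starts 91 bases from Ptcd2, and Ptcd2 was 1.40 ± 0.06 higher in heart beside 1.35 ± 0.07 for Mrps27. Mrpl40 and its neighbour Hira, a histone chaperone gene, went opposite ways (1.70 ± 0.05 and −0.80 ± 0.11).

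The rats that gave several organs allowed a paired check at 6 h, with brain, heart, kidney and liver of the same 4 Air rats and the rat as a block. Against the mean of the other 3 organs, heart was then higher for 70 members (34.2% of all genes) and lower for 0 (37.2%), and brain lower for 68 (50.3%) and higher for 2 (31.2%). In this fit, without lung and with 6 h arrays alone, kidney had 27 higher (34% of all genes) and 24 lower (30%). Liver had 22 (34.3%) and 28 (39.3%), and both organs were close to the shares of all genes. The parts of the missing lung and of the other times in this were not tested. Of 26 further probe sets of members with several, 23 had a heart mean above that of the other organs and 23 a lung mean below, by sign alone with no test. Of these 26, 17 exceeded a level of 5 in some organ, and 15 and 16 of them had these signs. Mrpl52 (heart −0.60, lung 0.55) and Mrps24 (−0.22 and 0.21) went the other way in both organs, Mrpl48 in heart (−0.08) and Mrpl17 in lung (0.25).

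After phosphine the members passed the test about as rarely as genes in general. In 16 comparisons of PH3 with Air, fitted per tissue with limma and adjusted as above, 3 of 1168 tests of members passed, beside 544 of 215024 tests of all genes (0.253%). They were Mrpl12 in liver and Mrpl41 and Mrpl49 in heart, all at 6 h. Outside those 2 comparisons the lowest adjusted p of a member was 0.12.

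**Figure D3:**
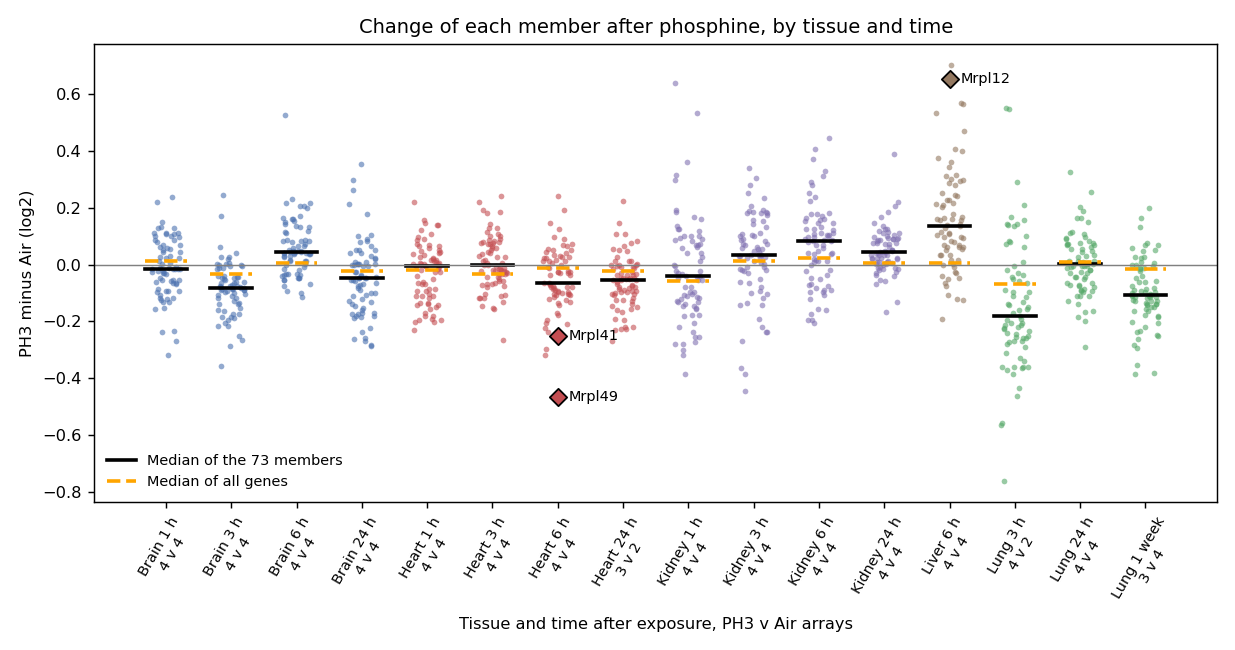
PH3 minus Air on the log2 scale for each of the 73 members in each of 16 comparisons, 1 point per gene, with the number of PH3 and Air arrays under each label. Diamonds mark the 3 changes with an adjusted p under 0.05, black bars the median of the members and dashed bars the median of all genes, which stand furthest apart in liver at 6 h and lung at 3 h.

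In liver at 6 h the members lay above Air as a group, and Mrpl12 rose. Of the 73 members, 60 had a change above 0 (51.5% of all genes), and their median was 0.14, against 0.01 over all genes. For 25 members the unadjusted p was under 0.05 with PH3 higher, where 7.73% of all genes had that, and for 0 with PH3 lower (6.37%). In 25 members all 4 PH3 livers lay above all 4 Air livers (5.69% of all genes). After adjustment 1 member was called (0.238% of all genes). Per array, the median of the members ran from 0.05 to 0.09 above the liver mean in PH3 rats and from 0.09 to 0.04 below it in Air rats (−0.09 to −0.04), with no overlap.

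Mrpl12 measured 10.76, 10.66, 10.57 and 10.94 in the PH3 livers at 6 h. In the Air livers it measured 9.98, 10.11, 10.16 and 10.07. All PH3 values lay above all Air values, and Mrpl12 rose by 0.65 ± 0.12 (SE, 4 against 4, adjusted p = 0.042). Another probe set of Mrpl12, read in a fit over all probe sets, rose by 1.21 ± 0.16 (adjusted p = 0.014). It was much dimmer than the one used, at 5.85 after PH3 and 4.64 after air. The remaining Mrpl12 probe set, dim at 3.95 after PH3 and 3.84 after air, differed by 0.11 ± 0.11 (adjusted p = 0.73). The 3 PH3 livers taken at 3 h read 10.13, 10.10 and 10.65, 1 of them (rat 122) at the 6 h level, with no Air livers to set against. The call depended on most arrays: in 7 of 8 fits that each left out 1 array the adjusted p exceeded 0.05, up to 0.16. It held only without PH3 rat 140 (adjusted p = 0.040). Over the 8 fits the change stayed between 0.58 and 0.71. The call also ended in a fit without a mean-variance trend (adjusted p = 0.096).

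Polrmt, the mitochondrial RNA polymerase to which the MRPL12 protein is known to bind, was the other gene of the pathway lists called in liver. It measured 8.96, 8.83, 8.82 and 9.21 after PH3 and 8.12, 7.92, 8.05 and 8.22 after air, a rise of 0.88 ± 0.16 (adjusted p = 0.042). Whether this Polrmt call holds with an array left out was not tested. The respiratory chain had 69 of 77 genes above 0 in liver (median 0.11) with none called, and the cytosolic ribosome 19 of 38 (0.00). Of transcription and RNA processing factors 10 of 15 were above 0 (0.20), of assembly factors 21 of 27 (0.11), of translation factors 4 of 11 (−0.03) and of aminoacyl-tRNA synthetases 9 of 16 (0.05).

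The largest liver change by size was that of Mrps2, an S2 counterpart at the back of the small subunit. It measured 9.25, 9.51, 9.35 and 9.92 after PH3 and 8.84, 8.59, 8.98 and 8.80 after air. The groups did not overlap, but the change of 0.70 ± 0.19 did not pass adjustment (adjusted p = 0.12). Mrps34 (0.37 ± 0.09, adjusted p = 0.095), Mrps35 (0.36 ± 0.09, adjusted p = 0.096) and Mrps5 (0.40 ± 0.10, adjusted p = 0.096) stood closest to the threshold. Mrps34, needed for a stable small subunit, was tight within groups, at 10.34, 10.36, 10.34 and 10.46 against 9.97, 10.01, 10.09 and 9.92. Large and small subunit members had medians of 0.11 and 0.16.

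**Figure D4:**
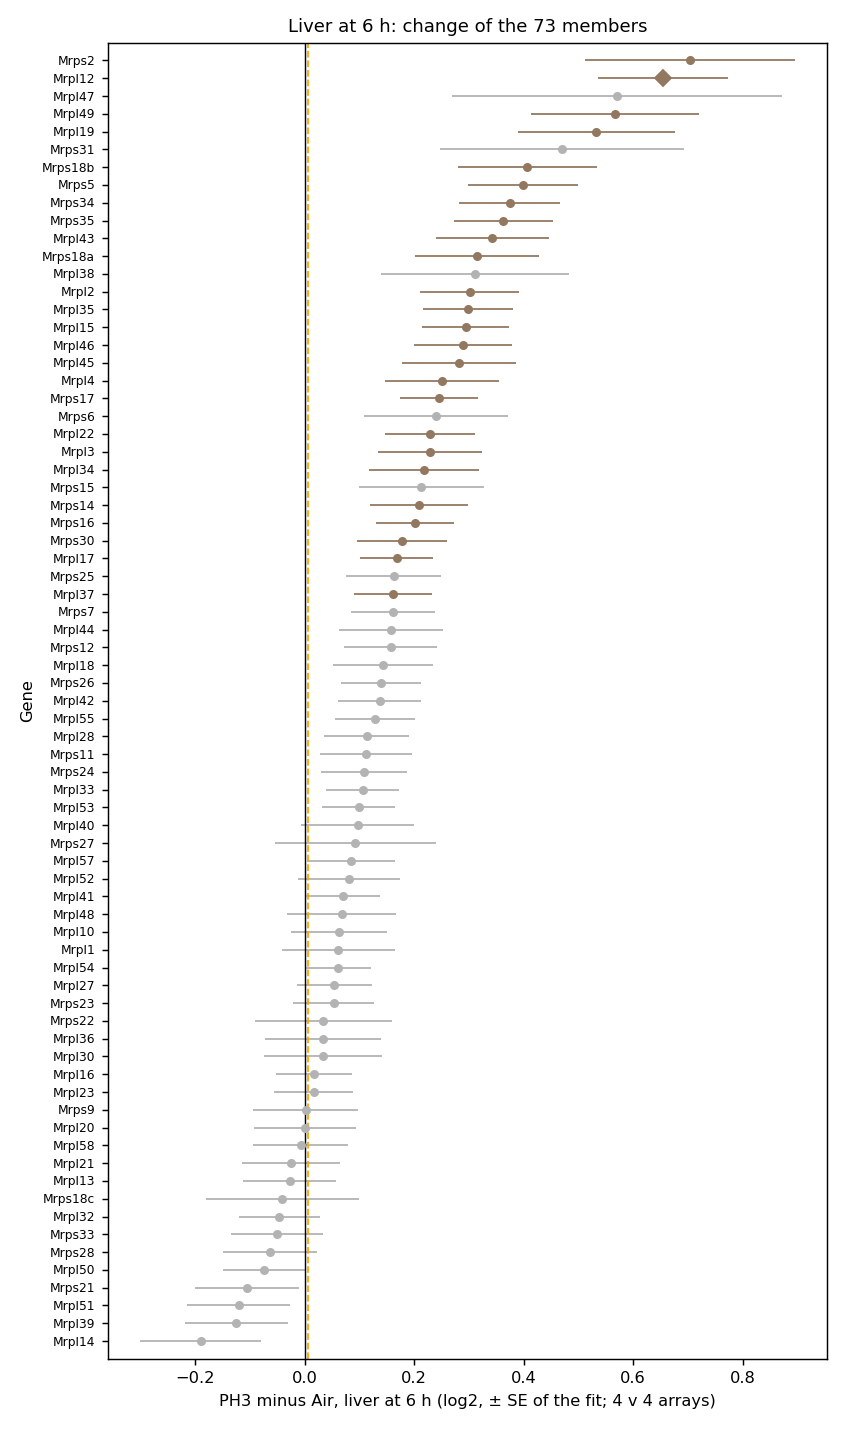
Change of each of the 73 members in liver at 6 h, PH3 minus Air on the log2 scale, with the standard error of the fit (4 against 4 arrays). Brown points have an unadjusted p under 0.05, the diamond (Mrpl12) an adjusted p under 0.05, and the dashed line marks the median of all genes; 60 of the 73 lie above 0.

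In kidney at 6 h, from the same exposed rats, the members' median was 0.08 against 0.02 over all genes, and 0 members were called (0.126% of all genes). Without PH3 rat 134 the median was 0.02, and without Air rat 126 it was 0.05. A list of 4 fibroblast markers averaged −0.22 to −0.02 in the PH3 kidneys and 0.02 to 0.73 in the Air kidneys, and its part in these values was not tested. For 6 members the unadjusted p was under 0.05, all with PH3 higher (7.78% of all genes in either direction). Mrps18b read 9.99, 9.99, 9.96 and 9.91 after PH3 and 9.53, 9.53, 9.59 and 9.58 after air, a difference of 0.41 ± 0.12 (adjusted p = 0.23) with no overlap. In liver the same gene differed by 0.41 ± 0.13 (adjusted p = 0.16). Mrps34 differed by 0.33 ± 0.12 in kidney beside 0.37 in liver, and Mrps2 by 0.44 ± 0.18 beside 0.70. Kidney and liver share PH3 and Air rats, so these pairs are not independent.

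In heart at 6 h 2 members fell, which is 2.74% of the members. This was about the share of all genes called in either direction (2.7%), so the count does not set the members apart. The 2 genes, Mrpl41 and Mrpl49, belong to the large subunit and are particular to mitochondria. The median of all members was −0.06 against −0.01 over all genes. It was −0.02 without PH3 rat 141 and −0.04 without Air rat 126. Large subunit members had a median of −0.08 and small subunit members 0.00. For 10 members the unadjusted p was under 0.05 with PH3 lower (8.3% of all genes) and for 1 with PH3 higher (6.78%).

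Mrpl41, which in other settings has been linked to cell death control as well as to the ribosome, measured 11.10, 10.88, 10.84 and 10.70 in the PH3 hearts. In the Air hearts it measured 11.17, 11.07, 11.18 and 11.11. Rat 128 overlapped the Air hearts, and the other 3 PH3 hearts lay below them. Mrpl41 fell by 0.25 on the log2 scale (SE 0.06, adjusted p = 0.022). Mrpl49 measured 9.24, 9.33, 9.31 and 8.51 after PH3 and 9.67, 9.48, 9.59 and 9.51 after air. All PH3 hearts lay below the Air hearts, rat 141 far below the other 3, and Mrpl49 fell by 0.46 on the log2 scale (SE 0.12, adjusted p = 0.025). Without rat 141 the change of Mrpl49 was −0.27, and neither gene was then called. In a fit of the 8 arrays alone neither was called, and leaving out any of Air rats 126, 138 and 156 also ended both calls. Another probe set of Mrpl49 gave −0.10 ± 0.17. In the fit over every probe set a further one of Mrpl40 was also called, at −0.44 ± 0.10 (adjusted p = 0.016).

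**Figure D5:**
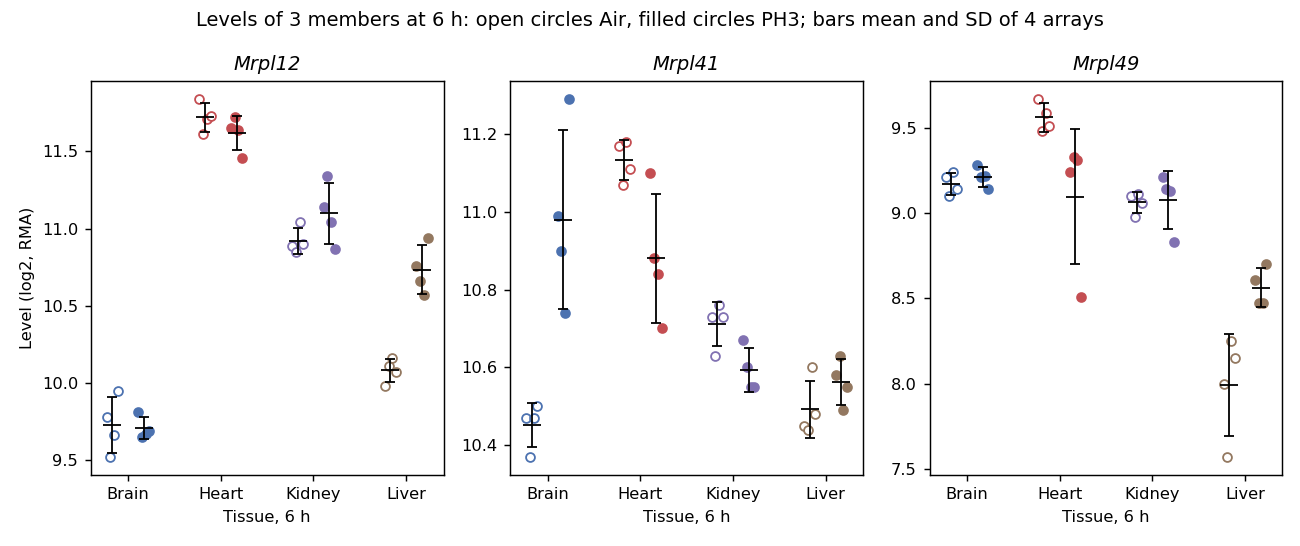
Log2 levels of Mrpl12, Mrpl41 and Mrpl49 at 6 h in brain, heart, kidney and liver, 1 circle per array (open Air, filled PH3), with the mean and SD of 4 arrays. Mrpl12 is higher after PH3 in liver, Mrpl41 is lower in heart while its 4 PH3 brains lie above the Air brains, and 1 PH3 heart lies at 8.51 for Mrpl49.

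Next in heart at 6 h came Mrps17 (−0.24 ± 0.07, adjusted p = 0.052) and Mrpl36 (−0.32 ± 0.10, adjusted p = 0.074), for which all PH3 arrays also lay below the Air arrays, as for 6 members in all (5.72% of all genes). Of the pathway lists, Polg2, the accessory subunit of the mitochondrial DNA polymerase, fell by 0.64 on the log2 scale (SE 0.17, adjusted p = 0.037). Qrsl1, which helps charge the mitochondrial glutamine tRNA, fell by 0.45 (SE 0.12, adjusted p = 0.038). Whether the Polg2 and Qrsl1 calls hold with an array left out was not tested. Rat 141 was the lowest of the 4 PH3 hearts for both, at 6.37 for Polg2 and 8.41 for Qrsl1. The same rat's heart had the lowest members' median of the 8 arrays, −0.11 against −0.05 over all genes. A list of 6 neuronal and glial markers averaged −0.06 to 1.38 in the PH3 hearts, with rats 128 and 140 highest, and −0.29 to −0.01 in the Air hearts, and its part in these results was not tested.

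Mrpl41 differed between organs in its response. In brain at 6 h it measured 10.99, 10.90, 10.74 and 11.29 after PH3 and 10.47, 10.37, 10.47 and 10.50 after air. No PH3 brain overlapped the Air brains, and the difference was 0.53 ± 0.12, which did not pass adjustment within brain (adjusted p = 0.30, where 0.00744% of all genes passed). At 1 and 3 h the brain differences of Mrpl41 were 0.24 ± 0.12 and 0.25 ± 0.12, and at 24 h 0.05 ± 0.12. A joint test of exposure by tissue over brain, heart and kidney at 1, 3 and 6 h called 139 of 13439 genes (1.03%) and 1 member, Mrpl41 (adjusted p = 9.7e-05). Its change in heart minus its change in brain at 6 h was −0.78 ± 0.13 (adjusted p = 0.00011, where 0.372% of all genes passed). It was −0.78 with the rat as a block too (adjusted p = 8.8e-05). It stayed between −0.86 and −0.68 and past the threshold when any heart or brain array of 6 h was left out. PH3 rat 141 gave both the highest PH3 brain value and the lowest PH3 heart value. The difference was −0.68 without its brain and −0.72 without its heart, and a fit without both was not run. That organ pair and time were not planned, and the adjustment covers the genes but not this choice. In kidney at 6 h the change of Mrpl41 was −0.12 ± 0.06 and in liver 0.07 ± 0.07.

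The other brain comparisons called 0 members with limma. At an unadjusted p under 0.05 there were 2 members at 1 h (5.19% of all genes), 8 at 3 h (4.03%), 2 at 6 h (3.21%) and 5 at 24 h (12.2%). At 1 h (0.00744% of all genes called) the smallest p-values belonged to Mrps35 (−0.32 ± 0.11), Mrpl30 (−0.27 ± 0.09) and Mrpl41. At 3 h (0.00744%) 10 of 73 members were above 0 (39.2% of all genes), with a median of −0.08 against −0.03 over all genes (−0.12 without Air rat 108, −0.04 without Air rat 97), led by Mrpl39 (−0.25 ± 0.09), Mrpl33 (−0.21 ± 0.09) and Mrpl52 (−0.29 ± 0.13). At 6 h Mrps25 (0.22 ± 0.08) and Mrpl50 (0.21 ± 0.11) followed Mrpl41. At 24 h (0.0298%) Mrps12 (−0.29 ± 0.11), Mrps35 (0.26 ± 0.11) and Mrps24 (−0.27 ± 0.11) led, all with adjusted p of at least 0.27. At that time 5 cerebellum and brain stem markers averaged 0.43 to 1.38 in the PH3 brains and −3.33 to 0.26 in the Air brains, without overlap, and 5 striatum markers −2.30 to 0.31 and −0.32 to 1.05. The part of sampled brain regions in the 24 h values was not tested. The members' median was −0.05, and 0.04 without Air rats 89 and 145, which had the lowest cerebellum and brain stem markers and were chosen after seeing the data.

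Heart at 1, 3 and 24 h also had 0 members called (0.0521%, 0.238% and 0% of all genes), and 9, 4 and 3 at an unadjusted p under 0.05 (8.07%, 12.8% and 3.01%). The leading members were Mrpl27 (−0.16 ± 0.07), Mrpl44 (0.22 ± 0.10) and Mrpl17 (−0.20 ± 0.09) at 1 h. At 3 h they were Mrpl40 (0.24 ± 0.07, adjusted p = 0.12), Mrps28 (0.22 ± 0.09) and Mrpl46 (0.19 ± 0.08). The members' median at 3 h was 0.00 and became 0.138 when arrays were centred on their medians. At 24 h, with 3 against 2 arrays, Mrpl12 (−0.22 ± 0.09), Mrpl50 (−0.23 ± 0.11) and Mrpl46 (−0.23 ± 0.11) led, and 15 of 73 members were above 0 (44.7% of all genes).

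Kidney at 1, 3 and 24 h had 0 members called (0.223%, 0.104% and 0.0149% of all genes), and 5, 2 and 1 at an unadjusted p under 0.05 (9.97%, 7.28% and 2.37%). Leading members were Mrpl37 (−0.30 ± 0.13), Mrps17 (−0.27 ± 0.12) and Mrpl47 (0.64 ± 0.29) at 1 h, and Mrps18b (0.34 ± 0.12), Mrpl39 (−0.24 ± 0.11) and Mrpl21 (−0.22 ± 0.11) at 3 h. At 24 h Mrps35 (0.39 ± 0.16), Mrpl19 (0.19 ± 0.11) and Mrps30 (0.13 ± 0.08) led, and 57 of 73 members were above 0 (51.4% of all genes).

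In lung at 3 h, with 4 against 2 arrays, the members' median was −0.18 against −0.07 over all genes, and 16 of 73 lay above 0 (39.4% of all genes). All PH3 lungs were below both Air lungs for 32 members (26.0% of all genes), but 0 members were called (0.298%) and 5 had an unadjusted p under 0.05 (11.8%). Mrpl14 led (−0.76 ± 0.24, adjusted p = 0.23), before Mrpl34 (−0.56 ± 0.25) and Mrps16 (−0.56 ± 0.25). The mean of 2 skeletal muscle markers stood at 2.33 and 2.79 in PH3 rats 147 and 148 against −0.32 and −0.21 in the Air lungs. Heart markers ran from −0.50 to 2.51 after PH3 and from 0.24 to 0.28 after air, adipocyte markers from 0.59 to 1.28 and from −0.15 to 0.59, and smooth muscle markers from 0.11 to 0.65 and from −0.06 to 0.12. The part of these tissues in the shift was not tested. Centring the arrays left a median of −0.09.

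Lung at 24 h had a median of 0.00 (−0.06 to 0.09 when 1 array was left out) with Mrps35 (0.26 ± 0.14), Mrpl52 (−0.29 ± 0.17) and Mrps9 (0.33 ± 0.23) in front. At 1 week the median was −0.10 against −0.02, with 14 of 73 above 0 (45.8% of all genes), led by Mrpl22 (−0.35 ± 0.14), Mrpl33 (−0.28 ± 0.15) and Mrps2 (−0.38 ± 0.25). That median ran from −0.23 without PH3 rat 143 to 0.01 without PH3 rat 142, and leaving out Air rats 133, 179 or 185 also changed it. Each of these changes was smaller than the SD of the members' median among replicates. Both comparisons called 0% of genes, and 0 and 1 members had an unadjusted p under 0.05 (1.41% and 2.12%).

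Within tissues, the exposure effect differed between times for 0 members in brain, heart, kidney and lung, with 0.268% of all genes called in heart and none in the other 3. At an unadjusted p under 0.05 there were 3 members in brain (4.25% of all genes), 4 in heart (9.99%), 2 in kidney (4.96%) and 0 in lung (3.22%). Air levels differed between times for 0 members, with 0.00744% of all genes called in brain, 0.0595% in heart, 0.0744% in kidney and 0% in lung, and 0, 1, 1 and 1 members had an unadjusted p under 0.05 there (5.77%, 4.78%, 5.67% and 2.45% of all genes).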

How the data were processed

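The deposited values are log2 expression levels, 31139 probe sets on 125 arrays, normalized by the authors with RMA; per the submitters' processing notes, Partek and Affymetrix Expression Console were used, with versions and order not given in the sources used here. Whole frozen organs were pulverised and RNA was labelled with a 3′ IVT kit, per the labels' protocols, so the levels read 3′ ends. Probe sets with 1 symbol in the platform annotation were kept, and the one with the highest mean over a tissue's arrays (for organ levels, over the 5 organ means) stood for its gene. limma 3.58.1 in R 4.3.3 fitted group means per tissue, with a mean-variance trend and Benjamini-Hochberg adjustment over 13439 genes at 0.05. Organ levels came from 1 fit over the Air arrays. The scripts were tested on simulated data. Replicates are separate rats by their label numbers, and brain rat 135 and rat 134 of the other organs at 6 h after PH3 were taken as different animals. Organs of 1 rat are paired by that number, and deviations of shared rats correlated at −0.05 to 0.18 (median 0.10, 22 of 24 above 0). The number of arrays limits the precision. The symbol rule that sets the members, and the lists, were chosen with earlier results of these data known, although no expression value decides whether a gene is a member. Named are members called after PH3, the 3 with the smallest p in each comparison, the 5 highest and 5 lowest per organ, the widest and narrowest organ ranges, those called in F tests, and a panel of members with known roles, Mrpl11 and Mrps36 of which are not analysed here. Alternatives were centred arrays, array weights, no trend, fewer genes or arrays, every probe set, the rat as a block, and leaving out each array.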

Additional observations from a re-analysis of the deposited data

Results flagged for a closer look

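Mrpl49 in the heart of PH3 rat 141 at 6 h measured 8.51, while the other 3 PH3 hearts lay between 9.24 and 9.33. The gap took up 0.89 of the range of the 4 arrays, above the 0.829 that marks a sample far from the others. Of 22 groups of single genes checked this way 1 passed that limit, and of 28 groups of member medians 0 did. Chance marks about 1 in 20 such groups.

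The change of Mrpl41 after PH3 in heart minus that in brain at 6 h was −0.78 (limma, adjusted p = 0.00011), a difference between organs tested directly. With the rat as a replicate block it was also −0.78 (adjusted p = 8.8e-05). This organ pair and time were not planned, and the adjustment covers the genes but not that choice.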

How the results depend on the processing

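Under alternatives other than leaving out an array, 241 values of the counts and medians stayed and 34 moved, and no called value reversed. In heart at 6 h the 2 calls became 0 with the arrays of both groups alone, 1 with centred arrays, 5 with array weights, 1 without a trend, 3 over every probe set and 0 to 3 when 1 array was left out. Mrpl41 then had an adjusted p of 0.22 with both groups alone, 0.054 centred and 0.065 without a trend, and Mrpl49 0.27 with both groups alone. In liver at 6 h the 1 call became 4 with both groups alone, 2 over every probe set, 0 without a trend and 0 to 1 with 1 array left out. Array weights gave 1 call in kidney at 6 h and 12 in lung at 3 h, where the weights did not converge, and kidney at 3 h gave 0 to 1 with 1 array left out. Centred arrays gave 1 call and a median of 0.138 in heart at 3 h, a median of −0.0071 in heart at 24 h and of −0.0909 in lung at 3 h, where leaving out 1 array gave −0.21 to −0.14. Among organ counts, centring gave 23 members lower and 1 at least 2-fold higher in kidney, 45 higher, 7 lower and 1 at least 2-fold higher in liver, and 1 higher and 38 at least 2-fold lower in lung. Every probe set gave 7 higher in brain, 2 lower in heart, 14 lower and 5 at least 2-fold higher in kidney, 1 at least 2-fold higher and 2 at least 2-fold lower in liver, and 5 higher in lung. The 6 h fit of 4 organs with the rat as a fixed replicate block gave 2 higher and 23 at least 2-fold lower in brain, 27 higher, 24 lower and 1 at least 2-fold higher in kidney, and 28 lower and 2 at least 2-fold lower in liver. Leaving out 1 liver gave 1 to 2 at least 2-fold lower there. With the rat as a random replicate block over all Air arrays heart again had 71 higher and lung 67 lower, and no organ count changed. The 6 h fit differs from the main fit in its other organs, 3 in place of 4, in its times and in the block. Without the block, the same 6 h arrays gave 26 higher and 23 lower in kidney and 21 and 29 in liver. Heart then had 70 and 0, and brain 2 and 68, the same as with the block. The cause of the shifts from the main fit was not tested.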
